A study of Solanum lycopersicum with 32 samples.

Results

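The subject is a set of 8 tomato genes for wound-induced proteinase inhibitors, out of 34728 gene rows in the count table that covers all experiments but heat shock; the heat table holds the same 8. Of these, 5 carry chromosome 3 identifiers and belong to the proteinase inhibitor II family (Solyc03g020030, Solyc03g020040, Solyc03g020050, Solyc03g020060 and Solyc03g020080). The other 3 carry chromosome 9 identifiers and belong to the proteinase inhibitor I family (Solyc09g084470, Solyc09g084480 and Solyc09g089510). The members were chosen by family after Solyc03g020030 had been found lower in 35S:SFT//WT than in WT//WT grafts in earlier work on these counts, so values of that contrast, and of those that share its libraries, are a description with no test. The count tables give identifiers only, and the family names come from tomato annotation as generally known.

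Proteinase inhibitors I and II are small defence proteins of tomato and potato that block serine proteases such as chymotrypsin and trypsin in the gut of chewing insects. A wounded leaf releases the peptide systemin, which acts through jasmonate, and jasmonate raises inhibitor transcripts near the wound and in distant leaves. Both families are therefore long-used readouts of the wound response, and they are also made in some unwounded organs, such as flowers and tubers of related species.

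RNA was sequenced from tomato stems, 2 libraries in each of 16 groups, in 5 experiments around florigen, the mobile flowering signal. In tomato it is the product of SINGLE FLOWER TRUSS (SFT), the counterpart of FT in Arabidopsis. The graft groups, named donor//recipient, were 35S:SFT//sft (a donor with SFT under the viral 35S promoter on the sft mutant), sft//sft, 35S:SFT//sp (the recipient mutant in SELF PRUNING), 35S:SFT//WT and WT//WT. The overexpression groups were pSFT-SFT, sft and wild type (WT). The FUL groups were 35S:SFT, 35S:TFUL2 and WT, and the Ginkgo experiment held 35S:GinFT alone, with no WT of its own. The heat-shock groups were heated and unheated plants with the heat-shock transgene pHS:FT in the sft background, and heated and unheated sft plants, so every group of that experiment carries sft. Each sample was 5 internode mid-segments cut 2 h after dawn. Age, the stem sampled in a graft and the number of transgenic lines were not given in the sources used here, and no group is labelled as wounded, although grafting itself cuts the stem.

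Some labels disagree or stand against the transcripts. The libraries labelled pSFT-SFT are titled pTFT, the overexpression sft samples carry the genotype label SFT, and the sft//sft grafts are titled with a wt partner. SFT (Solyc03g063100) stood at 60.6 and 56.7 CPM (reads scaled to a common library total after TMM normalization) in 35S:SFT stems, with 0 reads in either WT library of the FUL experiment, but at 1.07 and 1.29 CPM in the libraries labelled pSFT-SFT, against 2.92 and 2.28 CPM in their WT libraries. Reads of the Arabidopsis FT row numbered 57 and 70 in heated pHS:FT stems, 1 and 1 in unheated pHS:FT stems and 0 and 0 in heated sft stems, whereas the unheated sft libraries held 12 and 0. Total counts lay between 16583755 and 45790153 a library, at which a count of 0 allows a level of up to 0.0641 to 0.179 CPM (3 reads, counting error only). Of 3 secondary wall cellulose synthase identifiers and 3 Rubisco small subunit identifiers, tied to these proteins from published knowledge and not by the files, all 6 had reads in every library. Their summed levels lay between 1654 and 3352 CPM for the cellulose synthases, a mark of woody stem tissue, and between 419.1 and 5026 CPM for Rubisco.

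Reads of the proteinase inhibitor genes were carried by 3 of the 8 members. Solyc03g020030 and Solyc03g020040 had reads in 32 of 32 libraries, at 0.294 to 24.2 CPM (median 4.22) and 0.811 to 48.2 CPM (median 14.7). Solyc09g084470, the inhibitor I gene with the most reads, also had reads in 32 of 32 libraries, at 0.162 to 42.9 CPM (median 2.32). The other 5 members were low: none exceeded 116 reads in a library, and they are described after the comparisons. A level in CPM is not corrected for gene length, so levels are compared between libraries and not between genes.

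**Figure D1:**
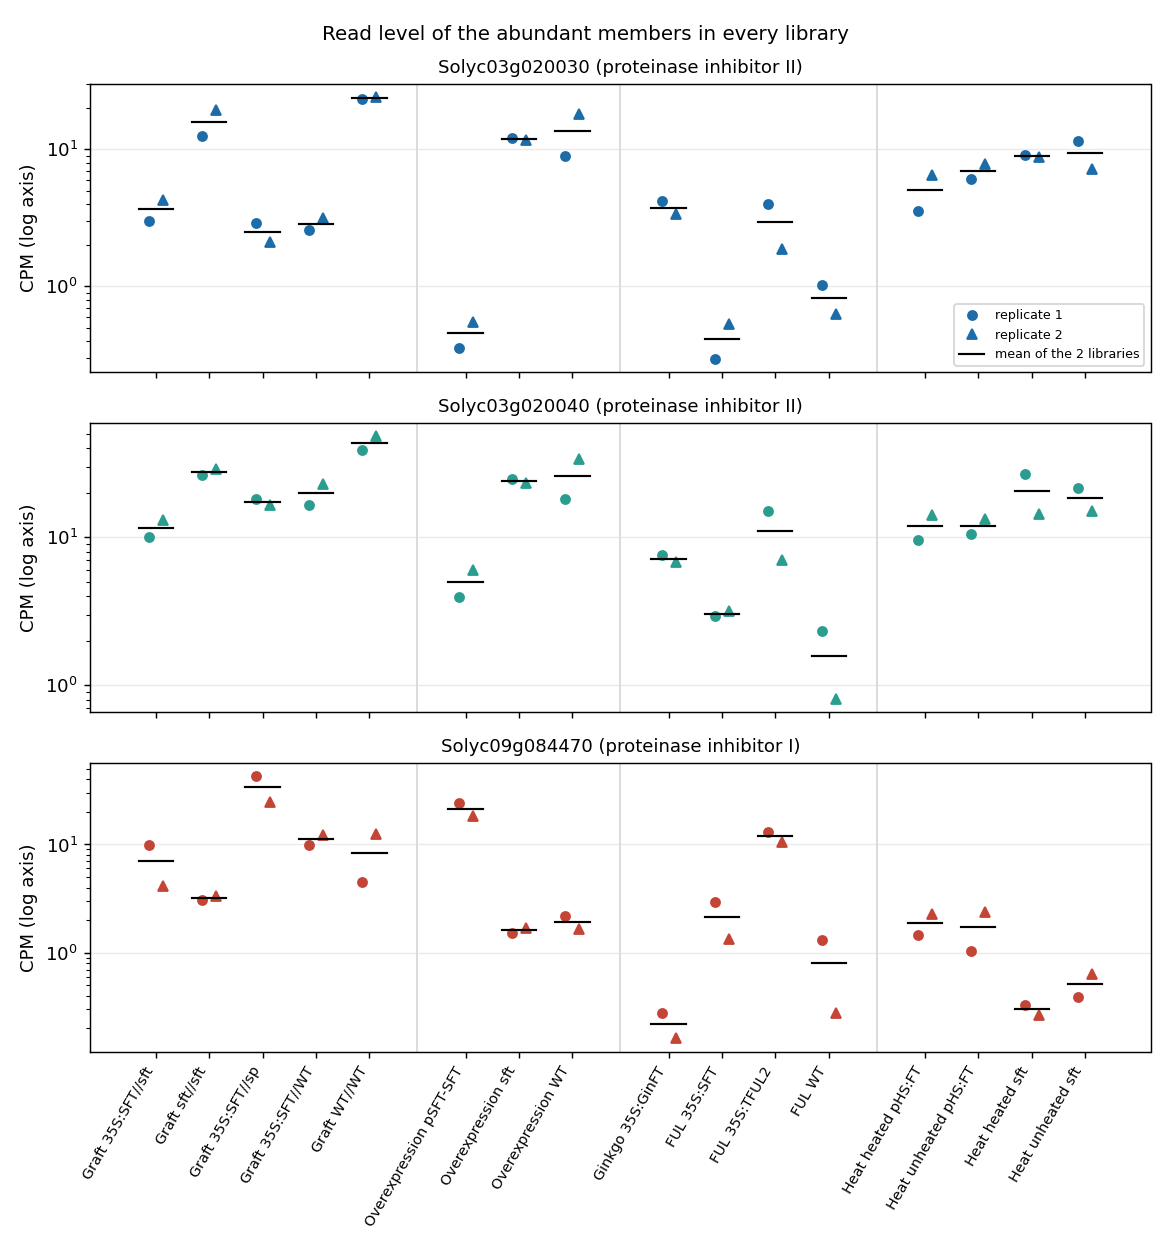
CPM on a log axis of the 3 abundant members (Solyc03g020030, Solyc03g020040, Solyc09g084470) in each of 32 libraries, with both replicates as symbols, the mean of the 2 libraries of a group as a line, and grey lines between experiments (35S:GinFT stands with the FUL groups). Both inhibitor II genes are lowest among grafts where the donor is 35S:SFT, and the inhibitor I gene is highest in 35S:SFT//sp grafts and in the libraries labelled pSFT-SFT.

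In grafts onto the sft mutant, the 35S:SFT donor went with lower inhibitor II levels in both libraries, a difference that missed the threshold after adjustment. Solyc03g020030 stood at 3.01 and 4.27 CPM in 35S:SFT//sft stems, against 12.4 and 19.2 CPM in sft//sft stems. Solyc03g020040 stood at 10.1 and 13.2 CPM in 35S:SFT//sft stems, against 26.5 and 28.8 CPM in sft//sft stems. For neither gene did the groups overlap, and overlap was not counted over all genes. The log2 fold changes were -2.11 (SE 0.27) and -1.25 (SE 0.20), with adjusted p of 0.21 and 0.35 by edgeR's quasi-likelihood test with Benjamini-Hochberg adjustment. Solyc09g084470 stood at 9.98 and 4.10 CPM in 35S:SFT//sft stems, against 3.10 and 3.36 CPM in sft//sft stems (log2 fold change 1.12, SE 0.56, adjusted p 0.95). Without 35S:SFT//sft replicate 1 that log2 fold change was 0.36.

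Of the 5 members that passed the filter on low counts in the grafts, edgeR's quasi-likelihood test called 0 in this comparison, beside 0% of all 21566 genes tested. At an unadjusted p under 0.05 it counted 2 members and 4.94% of all genes, and DESeq2 called the same 2 members, the abundant inhibitor II pair, among 42 genes in all. In a fit with the runs of sample numbers in the labels as a replicate block, both had an adjusted p of 0.035 and log2 fold changes of -2.11 and -1.26. The members that passed had a median log2 fold change of -1.25, beside -0.01 over all genes. That median includes Solyc03g020080, with 2 and 0 reads in 35S:SFT//sft and 5 and 1 in sft//sft stems (log2 fold change -1.50, SE 1.71). Its highest graft counts were 13 reads in WT//WT replicate 2 and 9 in 35S:SFT//WT replicate 2, libraries of the contrast that chose the members. The median is therefore no result about the set. In whole stems, fewer cells of a type and less RNA per cell cannot be told apart.

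In grafts onto WT recipients, the contrast behind the choice of the members, both abundant inhibitor II genes stood lower with the 35S:SFT donor than with the WT donor. Solyc03g020030 stood at 2.60 and 3.14 CPM in 35S:SFT//WT stems, against 23.1 and 24.2 CPM in WT//WT stems, a fitted 8.20-fold difference (log2 fold change -3.04, SE 0.28). Since this difference led to the choice of the members, its size may be overstated, and its SE cannot serve as a test. Solyc03g020040 stood at 16.7 and 23.1 CPM in 35S:SFT//WT stems, against 38.7 and 48.2 CPM in WT//WT stems (log2 fold change -1.12, SE 0.19). Solyc09g084470 overlapped between the groups, at 9.98 and 12.4 CPM in 35S:SFT//WT stems and 4.46 and 12.4 CPM in WT//WT stems. Without a 35S:SFT donor, the same inhibitor II genes were closer: Solyc03g020030 had 12.4 and 19.2 CPM in sft//sft stems, against 23.1 and 24.2 CPM in WT//WT stems (log2 fold change -0.58, SE 0.25). For Solyc03g020040 the fitted log2 fold change of sft//sft over WT//WT was -0.65 (SE 0.19), and for Solyc09g084470 it was -1.38 (SE 0.56), or -0.47 without WT//WT replicate 2.

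The sp recipient went with higher inhibitor I levels. With the 35S:SFT donor, Solyc09g084470 stood at 42.9 and 24.9 CPM in 35S:SFT//sp stems, against 9.98 and 12.4 CPM in 35S:SFT//WT stems (log2 fold change 1.60, SE 0.53), the highest group mean of this gene in the series. Solyc09g084480, another inhibitor I gene, stood at 1.39 and 0.705 CPM in 35S:SFT//sp stems, against 0.402 and 0.433 CPM in 35S:SFT//WT stems (log2 fold change 1.30, SE 0.62). Both inhibitor II genes overlapped between these recipients: Solyc03g020030 had 2.88 and 2.09 CPM in 35S:SFT//sp stems and 2.60 and 3.14 CPM in 35S:SFT//WT stems. SFT itself differed between the 35S:SFT//sp libraries, at 4.54 and 0.534 CPM, and whether that bears on the inhibitor levels was not tested. No test of the members is given for these grafts, since they share libraries with the contrast that chose them.

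In the overexpression experiment the abundant members of the families changed in opposite directions. In the libraries labelled pSFT-SFT, Solyc03g020030 and Solyc03g020040 fell and Solyc09g084470 rose, against both WT and sft stems. Solyc03g020030 stood at 0.358 and 0.553 CPM in stems labelled pSFT-SFT, against 8.87 and 18.1 CPM in WT and 12.1 and 11.7 CPM in sft stems. These 2 libraries held 11 and 15 reads of the gene, so counting error is a large part of that level. Its log2 fold change was -4.89 against WT (SE 0.45, adjusted p 0.002) and -4.71 against sft (SE 0.45, adjusted p 0.002), by edgeR's quasi-likelihood test with Benjamini-Hochberg adjustment.

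Solyc03g020040 stood at 3.97 and 6.04 CPM in stems labelled pSFT-SFT, against 18.1 and 34.1 CPM in WT and 24.8 and 23.2 CPM in sft stems. Its log2 fold change was -2.39 against WT (SE 0.34, edgeR adjusted p 0.0078) and -2.27 against sft (SE 0.34, edgeR adjusted p 0.0075). Solyc09g084470 stood at 24.04 and 18.2 CPM in stems labelled pSFT-SFT, against 2.17 and 1.66 CPM in WT and 1.53 and 1.69 CPM in sft stems. The inhibitor I gene thus lay 10.9-fold above WT (log2 fold change 3.45, SE 0.21, edgeR adjusted p 0.00048) and 13.1-fold above sft (log2 fold change 3.71, SE 0.21, edgeR adjusted p 0.00038). For each of the 3 genes, both pSFT-SFT libraries lay outside the range of the 4 others, which was not counted over all genes. Without WT replicate 2 the log2 fold change against WT was -4.28 for Solyc03g020030 and -1.85 for Solyc03g020040.

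Solyc09g084480 pointed the same way as its neighbour and did not pass, at 0.390 and 0.553 CPM in stems labelled pSFT-SFT, against 0.153 and 0.123 CPM in WT stems (log2 fold change 1.72, SE 0.53, edgeR adjusted p 0.071). In all, 3 of the 4 members that passed the filter were called against WT, 1 higher and 2 lower, where 17.8% of 21141 genes were called, 9.04% higher and 8.75% lower. Against sft the counts were again 3 of 4, 1 higher and 2 lower, beside 19.4% of genes, 10.3% higher and 9.08% lower. The comparisons share the pSFT-SFT libraries. Summed cellulose synthase levels were also higher there, at 3352 and 3081 CPM in stems labelled pSFT-SFT, against 2313 and 2082 CPM in WT and 1812 and 2143 CPM in sft stems, and their part in the result was not tested. The SFT transcript of these stems was not raised, against their label, so the direction belongs to the libraries as labelled.

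Stems titled sft showed no detected change against WT. These samples carry the genotype label SFT. The SFT transcript stood at 2.675 and 2.334 CPM in them, against 2.915 and 2.278 CPM in WT stems. Whether SFT function was lost in them was not tested. In sft against WT stems, edgeR's quasi-likelihood test called 0 of the 4 members that passed, beside 0.0568% of all genes. At an unadjusted p under 0.05 it counted 0 members, beside 5% of genes. DESeq2 called 0 members, beside 82 genes. The log2 fold changes were -0.18 (SE 0.32) for Solyc03g020030, -0.12 (SE 0.31) for Solyc03g020040 and -0.26 (SE 0.23) for Solyc09g084470.

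**Figure D2:**
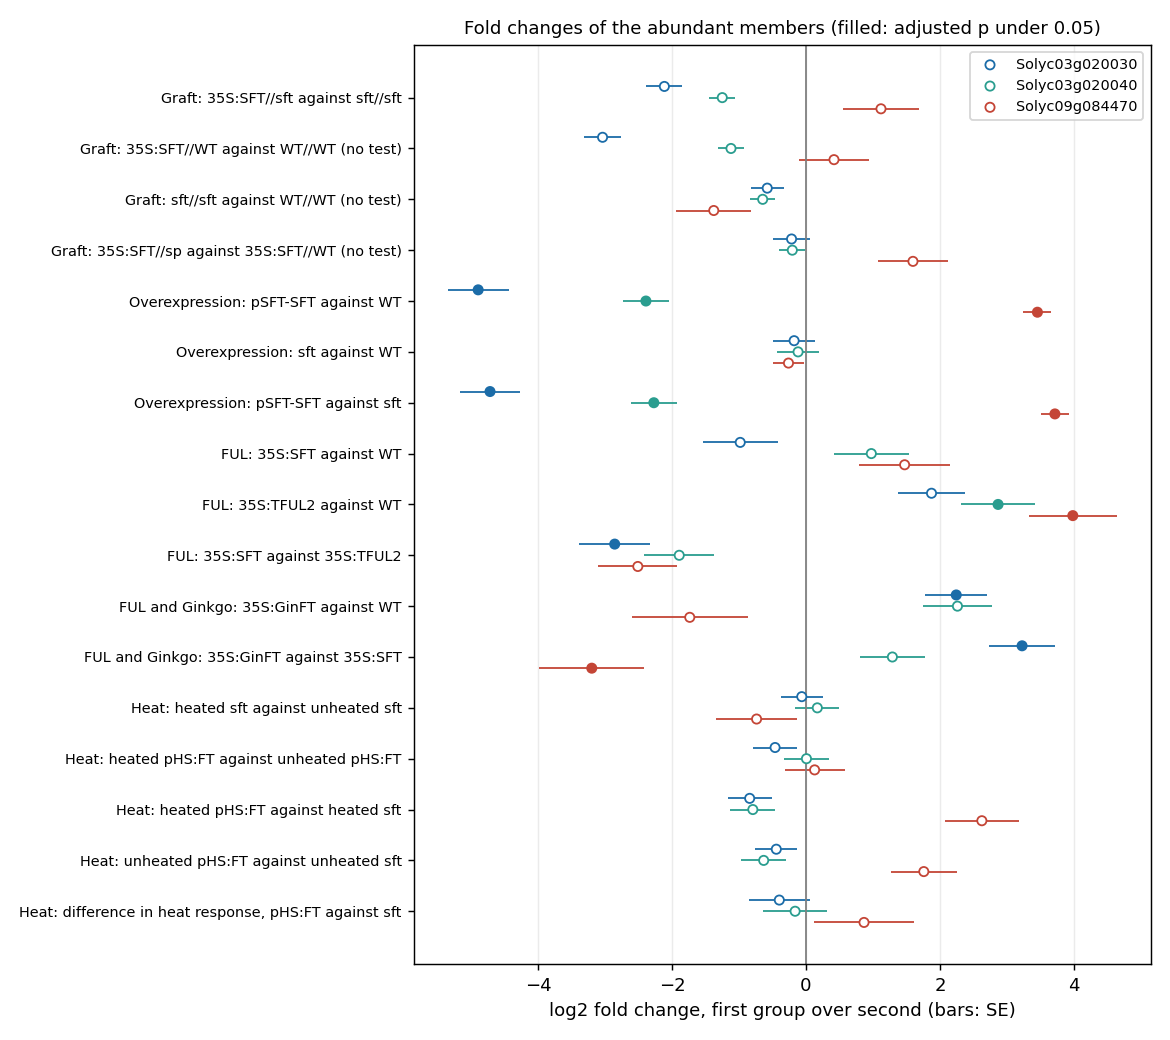
Log2 fold changes of the 3 abundant members in each comparison, first-named group over the second, with bars of 1 SE; filled points passed edgeR's quasi-likelihood test at an adjusted p under 0.05, and rows marked "no test" are the graft contrasts that chose the members or share their libraries. The points for the inhibitor II genes lie left and that for inhibitor I right of 0 in both pSFT-SFT comparisons, at -4.89, -2.39 and 3.45 against WT. Bars in the rows marked "no test" describe the fit only.

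In the FUL experiment, overexpression of TFUL2, a tomato FRUITFULL-type MADS-box gene, went with higher levels of 1 inhibitor I and 1 inhibitor II gene. Solyc09g084470 rose to 13.1 and 10.6 CPM in 35S:TFUL2 stems, against 1.32 and 0.281 CPM in WT stems (log2 fold change 3.98, SE 0.66, edgeR adjusted p 0.019). Solyc03g020040 rose to 15.03 and 7.09 CPM in 35S:TFUL2 stems, against 2.34 and 0.811 CPM in WT stems (log2 fold change 2.87, SE 0.56, edgeR adjusted p 0.029). Solyc03g020030 stood at 4.02 and 1.88 CPM in 35S:TFUL2 stems, against 1.02 and 0.624 CPM in WT stems, and did not pass (log2 fold change 1.87, SE 0.49, edgeR adjusted p 0.062, or 1.21 on the log2 scale without 35S:TFUL2 replicate 1). For these 3 genes the groups did not overlap, which was not counted over all genes.

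By edgeR's quasi-likelihood test 2 of 6 members were called in 35S:TFUL2 against WT, both higher, beside 12.7% of 21312 genes called, 7.46% higher. The calls rest on few libraries. Without 35S:TFUL2 replicate 1 the edgeR adjusted p was 0.092 for Solyc09g084470 and 0.12 for Solyc03g020040, and without 35S:TFUL2 replicate 2 it was 0.096 and 0.076. The log2 fold change of Solyc03g020040 was 2.202 without 35S:TFUL2 replicate 1 and 2.25 without WT replicate 2. For Solyc09g084470 the log2 fold change was 3.17 without WT replicate 2. Without WT replicate 1 the log2 fold changes were 5.39 for Solyc09g084470 and 3.77 for Solyc03g020040.

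The 35S:SFT stems of that experiment, where the SFT transcript was plainly raised, held Solyc03g020030 at 0.294 and 0.528 CPM, against 1.02 and 0.624 CPM in WT stems (log2 fold change -0.98, SE 0.56). Solyc03g020040 lay on the other side, at 2.94 and 3.17 CPM in 35S:SFT stems, against 2.34 and 0.811 CPM in WT stems (log2 fold change 0.98, SE 0.56). Solyc09g084470 stood at 2.94 and 1.35 CPM in 35S:SFT stems, against 1.32 and 0.281 CPM in WT stems (log2 fold change 1.47, SE 0.68). Leaving out each of the 4 libraries in turn gave log2 fold changes of 0.37 to 1.88 for Solyc03g020040, lowest without WT replicate 2 and highest without WT replicate 1, and of 0.68 to 2.88 for Solyc09g084470 under the same settings. None of these passed: edgeR's quasi-likelihood test called 0 of 6 members, beside 1.74% of all genes. At an unadjusted p under 0.05 it counted 0 members, beside 20.8% of genes. DESeq2 called 0 members, beside 1487 genes. The WT stems here were low in the inhibitor II pair to begin with, holding 20 to 24 reads of Solyc03g020030, which limits what a fall could show.

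Between the transgenics, Solyc03g020030 was lower in 35S:SFT than in 35S:TFUL2 stems, at 0.294 and 0.528 CPM against 4.02 and 1.88 CPM (log2 fold change -2.85, SE 0.53, edgeR adjusted p 0.035). It was the 1 member called of 6, beside 8.53% of genes, 5.21% lower, and the 35S:SFT libraries held 8 and 16 of its reads. The edgeR adjusted p lay between 0.095 and 0.18 on leaving out each of the 4 libraries in turn. Without 35S:TFUL2 replicate 1 the log2 fold change was -2.197. Solyc03g020040 (log2 fold change -1.89, SE 0.52, edgeR adjusted p 0.075) and Solyc09g084470 (log2 fold change -2.51, SE 0.59, edgeR adjusted p 0.055) did not pass. The value of Solyc03g020040 was -1.24 without 35S:TFUL2 replicate 1, and that of Solyc09g084470 was -3.17 without 35S:SFT replicate 1.

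Between stems expressing the Ginkgo FT gene and 35S:SFT stems, 1 inhibitor II gene was higher and 1 inhibitor I gene lower, a share of the members near that of all genes called. In 35S:GinFT stems Solyc03g020030 stood at 4.16 and 3.35 CPM, against 0.294 and 0.528 CPM (8 and 16 reads) in 35S:SFT stems. In WT stems of the FUL experiment it stood at 1.02 and 0.624 CPM. Solyc09g084470 was at its lowest group mean of the series, 0.278 and 0.162 CPM in 35S:GinFT stems, against 2.94 and 1.35 CPM in 35S:SFT stems and 1.32 and 0.281 CPM in WT stems. Against 35S:SFT, Solyc03g020030 was higher (log2 fold change 3.22, SE 0.49, edgeR adjusted p 0.0048) and Solyc09g084470 was lower (log2 fold change -3.20, SE 0.78, edgeR adjusted p 0.022), 2 of 6 members beside 32% of 21458 genes, 16.7% higher and 15.3% lower. The inhibitor I call was lost without either 35S:GinFT library (edgeR adjusted p 0.091 and 0.098) or without 35S:SFT replicate 1 (0.096, with a log2 fold change of -2.54).

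Against the WT stems of the FUL experiment, edgeR called 1 of 6 members in 35S:GinFT, beside 6.24% of genes, 2.55% higher. This was Solyc03g020030 (log2 fold change 2.24, SE 0.46, edgeR adjusted p 0.038), with an adjusted p between 0.069 and 0.17 on leaving out each of the 4 libraries in turn. Solyc03g020040 stood at 7.57 and 6.79 CPM in 35S:GinFT stems, against 2.34 and 0.811 CPM in WT stems, and missed the threshold (log2 fold change 2.26, SE 0.51, edgeR adjusted p 0.05). Its log2 fold change was 3.15 without WT replicate 1 (edgeR adjusted p 0.03) and 1.65 without WT replicate 2. The Ginkgo and FUL libraries are separate experiments, so the construct and the experiment cannot be told apart. Summed Rubisco levels also differed, at 419.1 and 525.6 CPM in 35S:GinFT stems, against 1570 and 1358 CPM in 35S:SFT and 1309 and 866.4 CPM in WT stems, and their part in the result was not tested.

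Heat alone did not move the members detectably. In heated against unheated sft stems, edgeR called 0 of the 4 members that passed the filter, beside 0.0973% of 20546 genes. At an unadjusted p under 0.05 it counted 1 member, beside 9.51% of genes. DESeq2 called 0 members, beside 253 genes. Solyc03g020030 stood at 9.15 and 8.76 CPM in heated sft stems, against 11.4 and 7.23 CPM in unheated sft stems. The member with the small unadjusted p was Solyc09g084480, at 0.427 and 0.667 CPM in heated sft stems, against 0.177 and 0.181 CPM in unheated sft stems (log2 fold change 1.59, SE 0.55, edgeR adjusted p 0.43). In pHS:FT plants the same gene stood at 0.285 and 0.656 CPM in heated stems, against 0.182 and 0.176 CPM in unheated stems (log2 fold change 1.34, SE 0.59, edgeR adjusted p 0.21). The heated libraries of both genotypes thus lay above the unheated ones, on 4 to 15 reads a library.

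In heated against unheated pHS:FT stems edgeR called 0 of 4 members, beside 5.99% of all genes. At an unadjusted p under 0.05 it counted 0 members, beside 24.7% of genes. DESeq2 called 0 members, beside 1800 genes. The difference between the heat responses of pHS:FT and sft plants gave 0 calls among the 4 by edgeR, beside 0.0146% of genes. At an unadjusted p under 0.05 edgeR counted 0 members, beside 9.5% of genes. DESeq2 called 0 members, beside 228 genes. The log2 value of this difference was -0.40 (SE 0.45) for Solyc03g020030, -0.16 (SE 0.47) for Solyc03g020040 and 0.87 (SE 0.75) for Solyc09g084470. Leaving out unheated sft replicate 1, the library with 12 FT reads, these values were -0.78, -0.46 and 1.19. For Solyc09g084470 the value was 1.57 without unheated pHS:FT replicate 2.

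Among heated stems, none of the 3 abundant members passed the test. The genotypes did not overlap for these genes, narrowly so for Solyc03g020040, and overlap was not counted over all genes. Solyc09g084470 had 1.47 and 2.27 CPM in heated pHS:FT stems, against 0.332 and 0.267 CPM in heated sft stems, and missed the threshold (log2 fold change 2.62, SE 0.55, edgeR adjusted p 0.057). Solyc03g020030 stood at 3.52 and 6.50 CPM in heated pHS:FT stems, against 9.15 and 8.76 CPM in heated sft stems (log2 fold change -0.84, SE 0.33, edgeR adjusted p 0.24). Solyc03g020040 stood at 9.56 and 14.2 CPM in heated pHS:FT stems, against 26.9 and 14.4 CPM in heated sft stems (log2 fold change -0.79, SE 0.34, edgeR adjusted p 0.28). In all, edgeR called 0 of 4, beside 2.39% of genes. At an unadjusted p under 0.05 it counted 3 members, beside 17.5% of genes. DESeq2 called 1 member, Solyc09g084470, among 1007 genes in all. Summed cellulose synthase levels were higher too, at 3323 and 2376 CPM in heated pHS:FT stems, against 1809 and 1980 CPM in heated sft stems, and their part was not tested.

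Without heat, the fold changes of the abundant members pointed the same way, but Solyc03g020030 overlapped between the genotypes. Its log2 fold change was -0.44 (SE 0.31, edgeR adjusted p 0.84), and that of Solyc03g020040 was -0.63 (SE 0.33, edgeR adjusted p 0.77). Solyc09g084470 stood at 1.05 and 2.38 CPM in unheated pHS:FT stems, against 0.389 and 0.632 CPM in unheated sft stems (log2 fold change 1.76, SE 0.50, edgeR adjusted p 0.58). By edgeR 0 of 4 members were called, beside 0% of genes; 1 member and 1445 genes had an unadjusted p under 0.05, and DESeq2 called 0 members and 97 genes. The log2 fold change of Solyc09g084470 was 1.43 without unheated sft replicate 1 and 1.05 without unheated pHS:FT replicate 2.

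The balance within the inhibitor II pair also differed between libraries. For each read of Solyc03g020040, the libraries labelled pSFT-SFT held 0.0902 and 0.0915 reads of Solyc03g020030, against 0.492 and 0.530 in WT stems and 0.487 and 0.504 in sft stems. In 35S:SFT stems the ratio was 0.100 and 0.167, in 35S:TFUL2 stems 0.268 and 0.265, and in WT stems of that experiment 0.436 and 0.769. The 35S:SFT ratios rest on 8 and 16 reads of Solyc03g020030, so counting error is a large part of them. The ratio in 35S:GinFT stems was 0.550 and 0.494. Because reads come from the same library, the ratio does not depend on scaling, and each of these transgenic pairs other than 35S:GinFT lay below its WT libraries.

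Grafts showed the same ordering, in libraries that include those behind the choice of the members. The ratio was 0.299 and 0.324 in 35S:SFT//sft stems, against 0.469 and 0.666 in sft//sft stems. It was 0.159 and 0.127 in 35S:SFT//sp stems and 0.156 and 0.136 in 35S:SFT//WT stems, against 0.597 and 0.502 in WT//WT stems. In the heat experiment it was 0.368 and 0.458 in heated pHS:FT stems, 0.576 and 0.585 in unheated pHS:FT stems, 0.340 and 0.608 in heated sft stems and 0.529 and 0.480 in unheated sft stems. No test was made of the ratio, and how reads shared by similar inhibitor II genes were counted was not given in the sources used here.

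**Figure D3:**
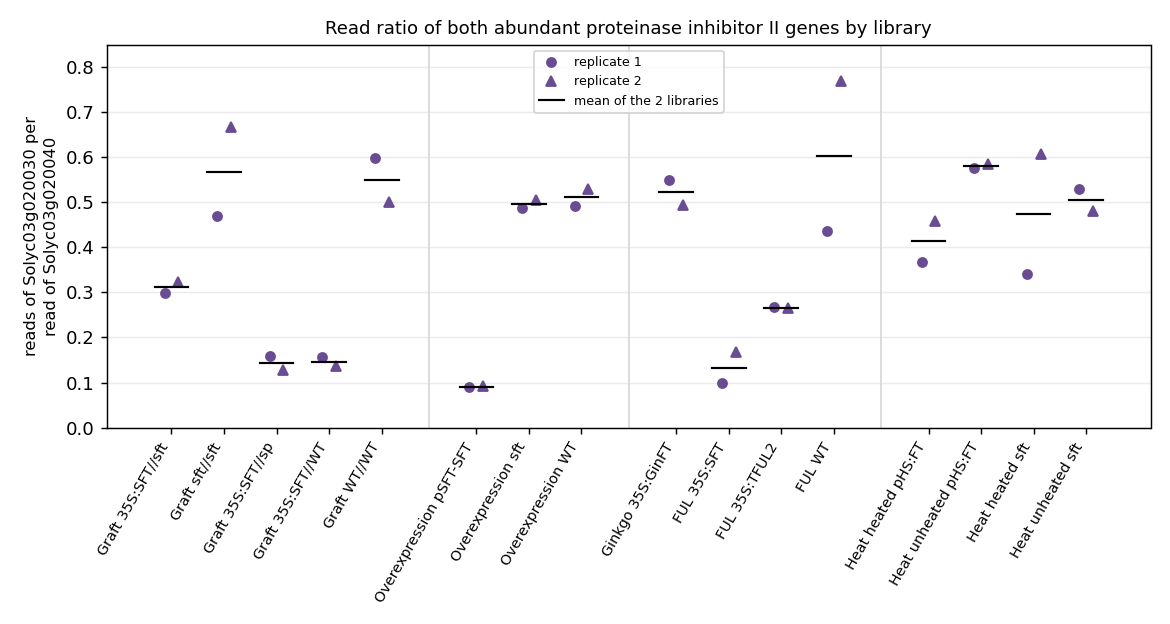
Reads of Solyc03g020030 per read of Solyc03g020040 in each of 32 libraries (linear axis from 0), with both replicates as symbols and the mean of the 2 libraries as a line. The libraries labelled pSFT-SFT lie at 0.0902 and 0.0915, the lowest of the series, and the WT libraries of the 3 experiments that hold WT lie between 0.436 and 0.769.

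The remaining inhibitor II genes were read mostly in the FUL experiment. Solyc03g020050 had reads in 7 of 32 libraries and reached 10 reads in 1 of them, WT replicate 2 of the FUL experiment, with 15 reads (0.468 CPM); it had 1 and 2 reads in 35S:TFUL2 stems, against 4 and 15 in WT stems. Solyc03g020060 had reads in 12 of 32 libraries, at most 86 (3.23 CPM) in 35S:TFUL2 replicate 1, while 35S:TFUL2 replicate 2 held 5. Its other higher library was WT replicate 2, with 44 reads (1.37 CPM). Solyc03g020080 had reads in 19 of 32 libraries, at most 116 (4.36 CPM) in the same 35S:TFUL2 replicate 1, against 16 in replicate 2, 11 and 13 in 35S:SFT stems and 7 and 41 in WT stems. A row that lies between them by identifier and is no member, Solyc03g020070, held 113 reads in that library and 2 in its replicate.

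The highest values of these genes came from single libraries. Solyc03g020060 and Solyc03g020080 passed the filter in the FUL fits, and neither was called by edgeR in any of the 3 FUL comparisons (adjusted p 0.17 to 0.66). In the FUL libraries the abundant pair made up as little as 31.5% of the inhibitor II reads (WT replicate 2) and 71.4% in 35S:TFUL2 replicate 1, beside 98.6% to 100% in every graft, overexpression, heat and Ginkgo library. In the overexpression experiment, Solyc03g020050 and Solyc03g020060 had 0 reads in all 6 libraries, and Solyc03g020080 had 2 reads in 1 of them.

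Of the low inhibitor I genes, Solyc09g084480 had 2 to 47 reads in 32 of 32 libraries (0.0677 to 1.77 CPM), highest in 35S:TFUL2 replicate 1, and edgeR called it in none of the 14 comparisons tested (its adjusted p lay between 0.067 and 1). Solyc09g089510 had reads in 22 of 32 libraries and at most 7, below the filter in all 5 fits. Its level cannot be ordered between groups at this depth.

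**Figure D4:**
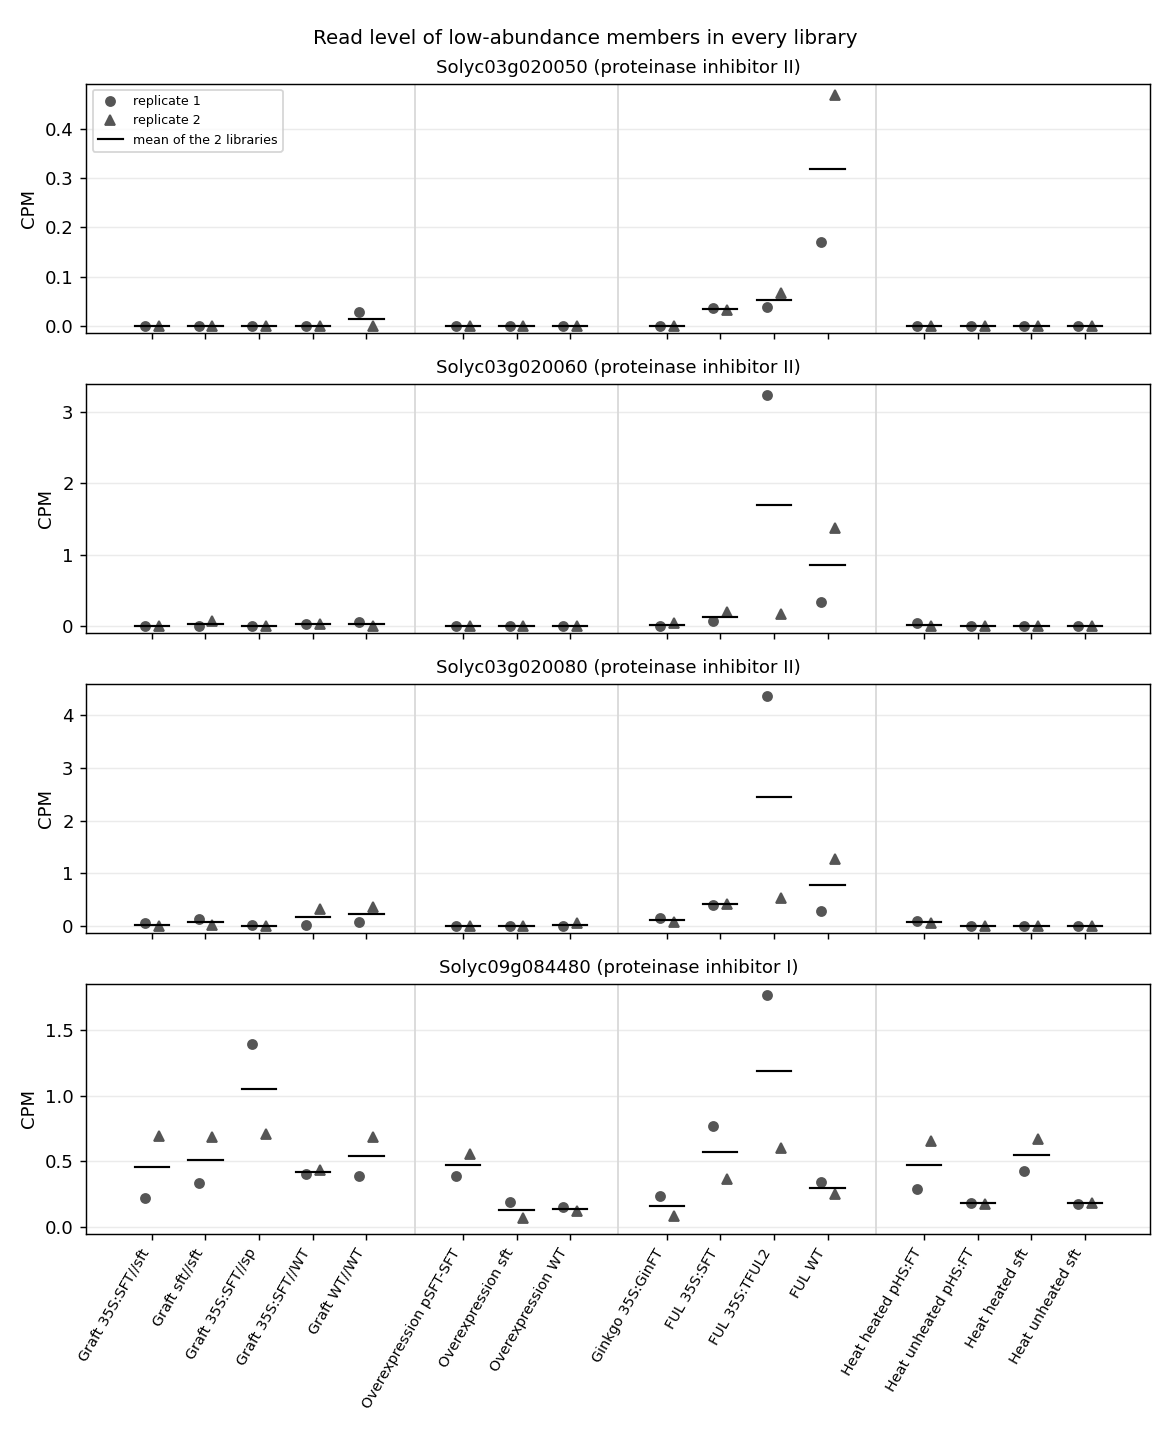
CPM (linear axes) of Solyc03g020050, Solyc03g020060, Solyc03g020080 and Solyc09g084480 in each of 32 libraries, with both replicates as symbols and the mean of the 2 libraries as a line. Replicate 1 of 35S:TFUL2 is the highest library for 3 of the 4 genes, at 3.23 CPM for Solyc03g020060, and its replicate is far lower.

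Across the 16 groups the order of mean levels differed between the families. For Solyc03g020030 WT//WT grafts stood first, at 23.6 ± 0.742 CPM (SD, n = 2), with no overlap with the next group. Then came sft//sft grafts at 15.8 ± 4.79 CPM, and sft and WT stems of the overexpression experiment at 11.9 ± 0.276 and 13.5 ± 6.52 CPM, where the WT libraries overlap both other groups. Heated and unheated sft stems followed at 8.96 ± 0.271 and 9.33 ± 2.98 CPM, and overlap. From unheated pHS:FT (6.90 ± 1.21 CPM) through heated pHS:FT, 35S:GinFT, 35S:SFT//sft, 35S:TFUL2 and 35S:SFT//WT to 35S:SFT//sp (2.49 ± 0.554 CPM), each group overlaps the next. Lowest stood 35S:SFT (0.411 ± 0.165 CPM) and pSFT-SFT (0.455 ± 0.138 CPM), which overlap, below WT of the FUL experiment (0.823 ± 0.282 CPM).

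Solyc03g020040 was also highest in WT//WT grafts, at 43.4 ± 6.70 CPM, and then in sft//sft grafts. Lowest were 35S:SFT at 3.05 ± 0.161 CPM and, below it, WT stems of the FUL experiment at 1.58 ± 1.08 CPM. The order differed in between: 35S:SFT//WT and 35S:SFT//sp grafts ranked 6 and 8 of the 16 groups, against 12 and 13 for Solyc03g020030. Solyc09g084470 began with 35S:SFT//sp (33.9 ± 12.7 CPM) and pSFT-SFT (21.1 ± 4.13 CPM), neither of which overlaps the next. The groups 35S:TFUL2, 35S:SFT//WT, WT//WT and 35S:SFT//sft followed between 11.9 ± 1.77 and 7.04 ± 4.16 CPM and overlap in a chain. Lowest stood 35S:GinFT (0.2196 ± 0.0820 CPM) and heated sft (0.299 ± 0.0458 CPM), which overlap, below unheated sft (0.510 ± 0.173 CPM). The labels list the experiments apart, so this order across them is a description: the 3 WT groups alone spanned 23.6 to 0.823 CPM for Solyc03g020030.

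Other wound-response genes were counted from lists tied to identifiers by published knowledge, not by the files. Of 13 jasmonate and systemin identifiers, which cover synthesis, perception and repression of the hormone, 12 were tested. In stems labelled pSFT-SFT, 7 of the 12 fell and 0 rose against WT, beside 8.75% of all genes lower (median log2 fold change -1.02, beside 0.00 over all genes). Against sft 6 fell and 0 rose, beside 9.08% of all genes lower (median -0.87, beside -0.01). By edgeR 1 of 12 was lower in 35S:SFT than in 35S:TFUL2 stems, beside 5.21% of all genes, with a list median of -1.16. At an unadjusted p under 0.05 stood 7 of the 12, beside 29.8% of all genes. DESeq2 called 5 of the list, beside 3064 genes. In 35S:GinFT against 35S:SFT stems 1 of 12 was lower, beside 15.3% of all genes, with a list median of 0.59. At an unadjusted p under 0.05 stood 3 of the 12, beside 44.8% of all genes. DESeq2 called 1 of the list, beside 6250 genes. In the other 10 comparisons tested, edgeR called 0 of the 12, with 0 to 3 at an unadjusted p under 0.05 and 0 or 1 called by DESeq2. Over all genes, 4.94% to 30.5% had an unadjusted p under 0.05 there, and DESeq2 called 42 to 3417 genes.

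Of 17 identifiers of other wound-induced defence proteins, 9 to 11 were tested. Against WT, 2 of 9 fell in stems labelled pSFT-SFT, beside 8.75% of all genes (median log2 fold change -0.67), and against sft 2 of 9 fell, beside 9.08% (median -1.04), with 0 rises in both. Of 11 tested in the FUL experiment, 2 rose in 35S:TFUL2 against WT, beside 7.46% of all genes higher, and 1 rose in 35S:SFT against WT, beside 1.74% of all genes called. The list medians lay on the other side, at -1.25 and -1.51. In 35S:GinFT against 35S:SFT stems 2 of 10 rose and 1 fell, near the 32% of all genes called (median -0.22). In heated pHS:FT stems, 2 of 9 rose against unheated pHS:FT, beside 5.99% of all genes called (median -0.21), and 1 of 9 rose against heated sft stems, beside 2.39% (median 0.14). In the other comparisons tested edgeR called 0, with 0 to 5 at an unadjusted p under 0.05 and 0 or 1 called by DESeq2. Over all genes, 4.94% to 29.8% had an unadjusted p under 0.05 there, and DESeq2 called 42 to 3064 genes. The count of 5 came from 35S:SFT//sft against sft//sft grafts, where the share of all genes was 4.94%.

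Genes beside the members by identifier were called in varying number. Around the chromosome 3 block, 10 of 21 neighbouring rows were tested in the overexpression experiment, of which 3 rose and 1 fell in stems labelled pSFT-SFT against WT, beside 17.8% of all genes called (median log2 fold change 0.01), and 2 rose against sft, beside 19.4%. Around Solyc09g084470 and Solyc09g084480, 2 of 13 rose in each comparison (medians 0.02 against WT and 0.02 against sft), and around Solyc09g089510, 2 of 10 rose in each. In 35S:SFT//sft against sft//sft grafts 0 of 12, 0 of 13 and 0 of 10 neighbours were called by edgeR, beside 0% of all genes. At an unadjusted p under 0.05 stood 0, 4 and 3, beside 4.94% of all genes. DESeq2 called 0 neighbours, beside 42 genes. In 35S:GinFT against 35S:SFT stems edgeR called 3 of 13, 7 of 11 and 5 of 8 neighbours, beside 32% of all genes. In each of the other 10 comparisons tested it called 0 to 2 of the neighbours in a window, beside 0% to 12.7% of all genes. At an unadjusted p under 0.05 stood 0 to 6, beside 5% to 30.5% of all genes. DESeq2 called 0 to 3 neighbours, beside 82 to 3417 genes.

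The genes most like each family over the 32 libraries were sought by Pearson's r of log2 CPM, after centring on the mean of each experiment, among 20038 genes. For the summed inhibitor II members these were Solyc10g074440 (r 0.899, Spearman's rho 0.902) and Solyc03g043860 (r 0.847, rho 0.841). Solyc10g074440 stood at 5.27 and 5.67 CPM in stems labelled pSFT-SFT, against 17.9 and 28.7 CPM in WT stems, and at 10.1 and 10.4 CPM in 35S:SFT//WT grafts, against 31.9 and 38.3 CPM in WT//WT grafts. In 35S:GinFT stems it lay the other way, at 0.476 and 0.242 CPM, against 3.197 and 3.267 CPM in 35S:SFT stems. Summed inhibitor II levels were 11.9 and 10.26 CPM in 35S:GinFT stems, against 3.748 and 4.355 CPM in 35S:SFT stems. Centring removes the level of the lone Ginkgo group, so r does not register this difference. For the summed inhibitor I members the genes most alike were Solyc09g014230 (r 0.939, rho 0.912) and Solyc02g067330 (r 0.902, rho 0.917). Solyc09g014230 stood at 16.5 and 17.4 CPM in stems labelled pSFT-SFT, against 0.409 and 0.277 CPM in WT stems, and at 10.02 and 6.02 CPM in 35S:SFT//sp grafts, against 3.58 and 2.02 CPM in 35S:SFT//WT grafts. These correlations describe libraries that share experiment and depth, and carry no test. The levels given come from the same libraries.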

How the data were processed

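The authors deposited raw counts, the number of reads assigned to each gene, in 2 tables: the heat-shock experiment (34825 rows) has its own and the other experiments share the other. Tools named in the submitters' processing notes are HTSeq 0.6.1, Bowtie2 2.2.6, TopHat2 2.1.0, Trim Galore and FastQC 0.11.5. Their settings, the strand setting and the genome build were not given in the sources used here. Reads of overlapping, antisense or near-identical genes may therefore not be separable. Per the labels' protocols, stems were harvested in duplicate and single 50 base reads were taken from TruSeq v2 libraries. In the FUL, Ginkgo and heat experiments both libraries of a group share a label number, so p-values measure the spread between these samples, which may be technical. Both libraries of each group differed by more than sampling noise (chi-square per degree of freedom 7.25 to 47.6 over genes with 100 or more reads).

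Tests used the counts in R 4.3.3 with edgeR 4.0.16 (glmQLFit and glmQLFTest, two-sided), TMM, filterByExpr (minimum count 10, minimum total 15), all groups of an experiment in one fit, and Benjamini-Hochberg adjustment over all genes of a comparison; an adjusted p under 0.05 was called. Of 17 comparisons, 14 tested the members. The SE is the fold change over the root of the F statistic. CPM in the text use TMM over all 32 libraries. The procedure was tested on simulated data with the same spread for every gene and changes only in well-read genes. It therefore does not cover members with few reads. Alternatives were RLE scaling, no filter, a replicate block, only the groups compared, each library left out and DESeq2 1.42.0. Named genes were the 8 members in every comparison and the 2 genes most like each family (pseudocount 0.5 CPM). The members and lists were chosen with earlier results of these data known.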

Additional observations from a re-analysis of the deposited data

How the results depend on the processing

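In both pSFT-SFT comparisons 72 of 72 recomputed member fold changes kept their direction and side of the threshold, under RLE scaling, no filter, a replicate block, only the groups compared, each library left out and DESeq2. Among the called members there, Solyc03g020040 came nearest to the threshold, and barely passed it with pSFT-SFT replicate 1 left out. Its log2 fold change was then -2.115 against WT and -1.999 against sft. Over the 14 comparisons tested, 549 recomputed member fold changes kept their direction and side of the threshold, 26 gained a call, 19 lost one and 32 turned sign; the turns in sign came from members that were not called. In the 3 graft contrasts without a test 144 kept their sign and 9 turned. The cause of a change was not tested. Calls among members of 35S:SFT//sft against sft//sft grafts numbered 2 with the replicate block by runs of label numbers and 2 by DESeq2. For 35S:SFT against 35S:TFUL2 they numbered 2 without a filter, 2 with the replicate block, 3 with only the groups compared, 4 by DESeq2 and 0 with any library left out. For 35S:TFUL2 against WT they numbered 3 without a filter, 1 with only the groups compared, 3 by DESeq2 and 0 to 2 with a library left out. For 35S:GinFT against WT they numbered 2 without a filter, 2 with the replicate block, 0 with only the groups compared, 3 by DESeq2 and 0 to 1 with a library left out; against 35S:SFT they numbered 3 with the replicate block, 3 with only the groups compared, 3 by DESeq2 and 1 to 2 with a library left out. For heated pHS:FT against heated sft they numbered 1 without a filter, with the replicate block, with only the groups compared and by DESeq2. Over all genes, DESeq2 called 42, 3064, 3417, 1969, 6250 and 1007 in these comparisons, in the order given. Calls over all genes under the other alternatives are not given here. A changed count of members is therefore no result about the members. The labels do not say that equal replicate numbers pair samples, and same-numbered libraries correlated between -0.467 and 0.367 in their deviations.

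Turns in sign in the comparisons tested were these. In heated against unheated pHS:FT, Solyc03g020040 was -0.001 with RLE and with only the groups compared, -0.045 with the first group's block numbers crossed (added after seeing the data), 0 by DESeq2 and -0.3 to 0.268 with a library left out, and Solyc09g084470 was -0.337 to 0.832. In unheated pHS:FT against unheated sft, Solyc09g084480 was -0.024 with the replicate block, -0.02 with it crossed and -0.025 to 0.032 with a library left out. The other ranges with a library left out were as follows. In 35S:SFT//sft against sft//sft, Solyc09g084480 was -1.16 to 0.48. In sft against WT, Solyc03g020030 was -0.61 to 0.43, Solyc03g020040 -0.51 to 0.42 and Solyc09g084480 -0.999 to 0.45. In the FUL experiment Solyc03g020080 was -1.64 to 0.47 in 35S:SFT and -0.59 to 3.02 in 35S:TFUL2 against WT, and Solyc03g020060 was -2.35 to 2.30 in 35S:TFUL2. In heated pHS:FT against heated sft, Solyc09g084480 was -0.92 to 0.26. In heated against unheated sft, Solyc03g020030 was -0.35 to 0.32 and Solyc03g020040 -0.35 to 0.55. The difference in heat response was -0.54 to 0.36 for Solyc03g020040 and -0.92 to 0.26 for Solyc09g084480. In the graft contrasts without a test, all 9 turns came with a library left out. In 35S:SFT//WT against WT//WT, Solyc09g084470 was -0.14 without WT//WT replicate 1, Solyc03g020080 was 0.52 without 35S:SFT//WT replicate 1 and 1.01 without WT//WT replicate 2, and Solyc09g084480 was 0.11 without WT//WT replicate 2. In sft//sft against WT//WT, Solyc03g020080 was 0.14 without WT//WT replicate 2, and Solyc09g084480 was 0.36 without sft//sft replicate 1 and 0.37 without WT//WT replicate 2. In 35S:SFT//sp against 35S:SFT//WT, Solyc03g020030 was 0.007 without 35S:SFT//sp replicate 2 and Solyc03g020040 was 0.05 without 35S:SFT//WT replicate 2. With 2 libraries a group, leaving one out assumes that the lone library varies like the other groups. Depth limits Solyc03g020050 and Solyc09g089510, which passed the filter in no fit.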
